A study of Capra hircus with 9 samples.

Results

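The immediate early response genes FOS, FOSB, JUN, JUNB, EGR1, ATF3, MYC, DUSP1, IER2 and IER3 were described in mammary gland tissue of Laoshan dairy goats. The 10 genes were taken from the table by their symbols, out of 23499 genes, and all 10 passed the filter of at least 0.5 FPKM (fragments per kilobase of gene, relative to all mapped fragments) in at least 3 libraries, which 14701 genes passed. RNA-seq libraries of 9 goats were compared, with 3 goats in late lactation (LL, 240 days postpartum), 3 in the dry period (DP, 300 days postpartum) and 3 in late gestation (LG, 140 days after mating). The goats were in parity 3 with a mean age of 4 years, none was described as treated or genetically altered, and each library came from the gland of 1 slaughtered goat.

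Immediate early genes are transcribed within minutes of a growth factor, hormone, cytokine or stress reaching a cell, without the need for new protein synthesis. MAP kinases and other signals act on factors that are already bound at these genes, such as serum response factor with its ELK partners and CREB, and the short-lived mRNA then disappears quickly. FOS and FOSB proteins pair with JUN and JUNB proteins to form AP-1, EGR1 is a zinc finger transcription factor, ATF3 is a transcription factor induced by cell stress, MYC drives growth and cell division, and DUSP1 is a phosphatase that switches MAP kinases off. In the mammary gland, AP-1 genes are known for their rise when milk removal ends, and early response genes are also known to rise in tissue that was handled or kept warm before freezing. The time between slaughter and freezing was not given in the sources used here.

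Values were compared after each library was divided by a scaling factor, taken from the median ratio of its genes to their mean level over the libraries. These factors lay between 0.498 and 0.605 for LL, between 1.44 and 1.53 for DP and at most 1.31 for LG. Much of the LL total was milk protein mRNA: 5 genes of secretory cells (4 milk protein genes and ELF5) reached 235753 to 315902 FPKM together in LL, only 132.7 to 146.7 FPKM in DP, and 7957 to 10970 FPKM in LG. Markers of luminal cells were found in every library (KRT8, KRT18, KRT19, EPCAM and CDH1 summed to 170.9 to 689.1 FPKM). As deposited, the median log2 fold change of all genes tested was 1.09 for DP and 0.93 for LG, both against LL, so directions against LL are given relative to this shift. In tissue of mixed cells, fewer cells of a type and less RNA per cell cannot be told apart. A gene was called where the adjusted p-value of limma was under 0.05 and the log2 fold change, on the scale log2(scaled FPKM + 1), was at least 1 in size.

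IER2 and IER3, small proteins of the early response to growth and stress signals, could not be read on their own. In all 9 libraries the value of IER2 (chromosome 7, 97807740 to 97810816, minus strand) was that of LOC108636403, a neighbour on the same strand at a distance of 17203 bases, plus an amount of 1.0 to 1.5 FPKM. The value of IER3 (chromosome 23, 21705526 to 21706813, minus strand) was that of FLOT1, which encodes a lipid raft protein and lies 301 bases away, plus 1.28 to 1.78 FPKM. The added amount of IER3 exceeded that of IER2 by the same 0.28 FPKM in each library. Values that followed a same-strand neighbour in this way or in a straight line, called linked, were found for 1474 genes of the table, and the other 8 immediate early genes were not among them. IER2 and IER3 are therefore given by their values only, and the spread and the order of libraries are described for the 8 genes that were not linked.

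**Figure D1:**
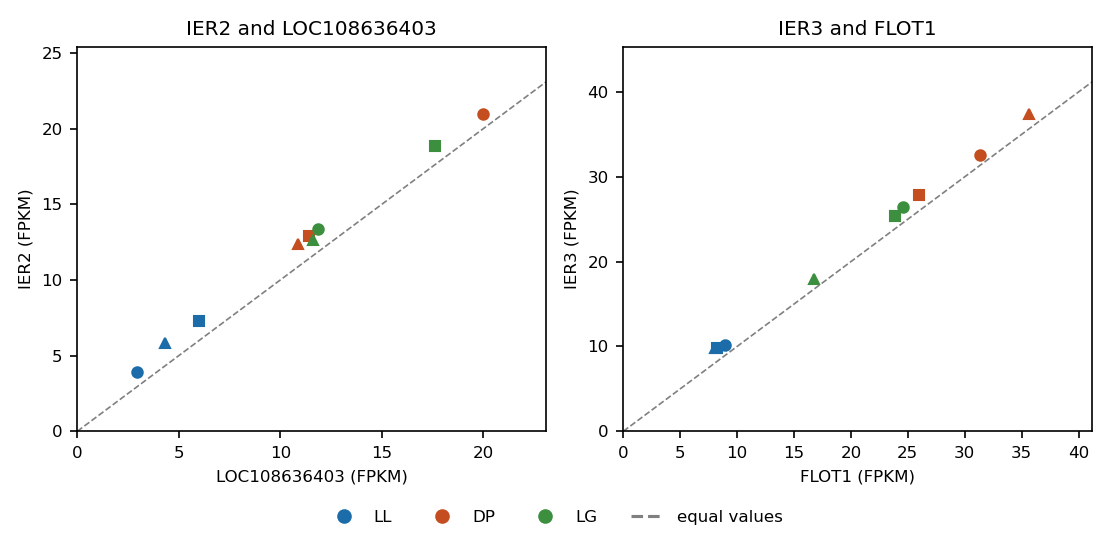
IER2 against LOC108636403 and IER3 against FLOT1, both axes in deposited FPKM; each point is 1 library, its colour is the stage, its shape the replicate, and the dashed line marks equal values. All 9 points of each pair lie just above the line, by 1.0 to 1.5 FPKM for IER2 and by 1.28 to 1.78 FPKM for IER3.

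The levels per gene length covered a wide range. On scaled FPKM, averaged over the 9 libraries, JUN was the highest (68.6 ± 36.2, SD, n = 9), and DUSP1 followed (62.3 ± 28.7). FOS (22.0 ± 26.9), JUNB (20.8 ± 16.3) and IER3 (19.7 ± 3.57) came next, then IER2 (10.9 ± 2.59), MYC (7.62 ± 2.67), ATF3 (7.60 ± 6.47), EGR1 (3.11 ± 3.58) and FOSB (0.805 ± 1.72). IER2 and IER3 take their place in this order from the neighbours they follow. Of the 8 other genes, no neighbours in the order kept it in all 9 libraries: DUSP1 lay above FOS and EGR1 above FOSB in 8 of 9, JUNB above MYC and ATF3 above EGR1 in 7 of 9, JUN above DUSP1 and MYC above ATF3 in 6 of 9, and FOS above JUNB in only 3 of 9. Except for DUSP1 and FOS, the means of each of these pairs differed by less than the SD of the upper gene. The order was not tested.

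**Figure D2:**
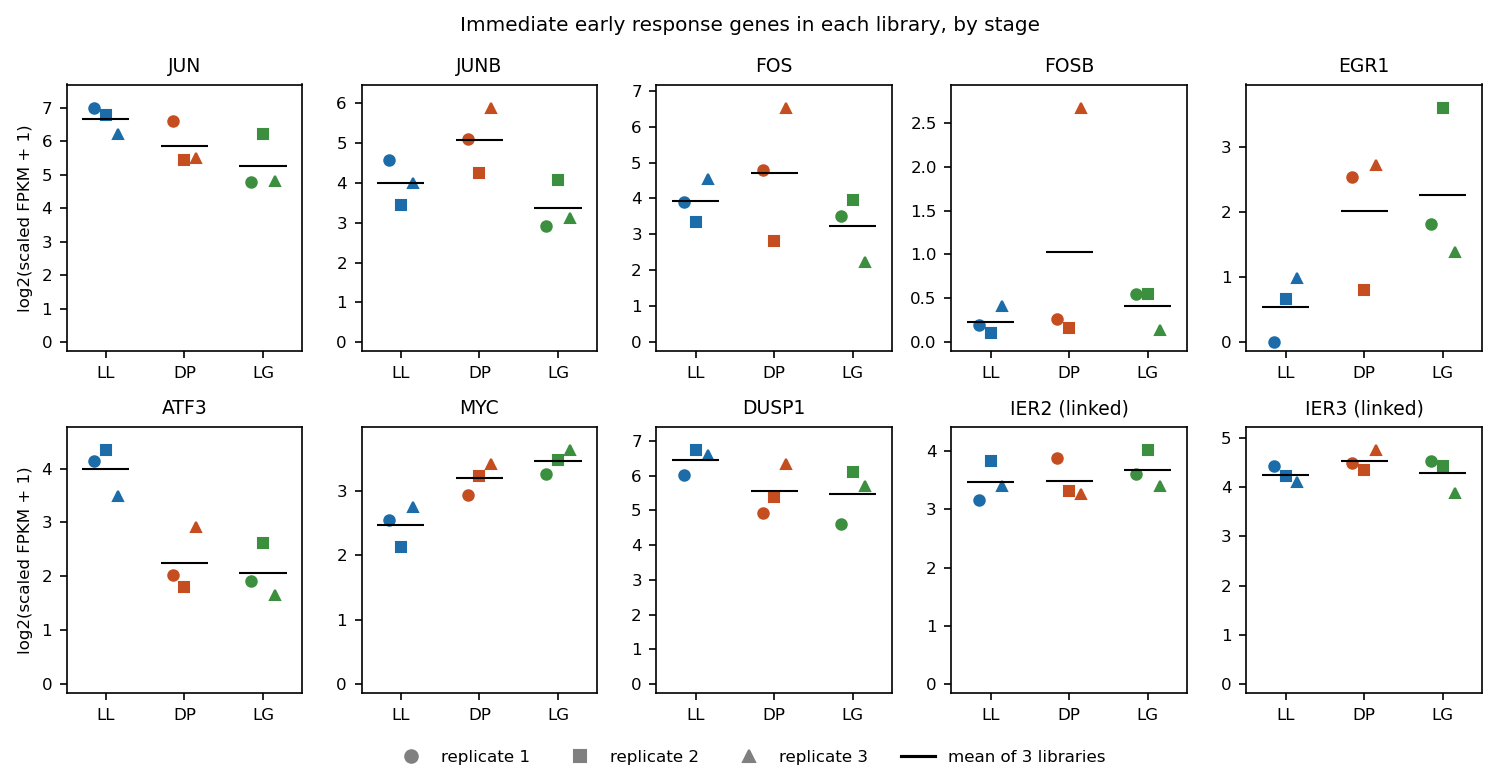
The level of each gene on log2(scaled FPKM + 1) in each library (vertical axis), by stage (horizontal axis); shapes are replicates and bars are means of 3 libraries. ATF3 lies between 10.2 and 19.4 scaled FPKM in LL and below 6.6 in DP and LG, while FOS and FOSB are spread most widely in DP.

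JUN, the most widely used AP-1 subunit, was called lower in LG than in LL. The call was lost for 4 of the 9 libraries, each left out in turn. JUN (chromosome 3, 33528872 to 33531564, minus strand) was deposited at 62.98, 60.11 and 44.11 FPKM in LL replicates 1 to 3, at 145.82, 61.47 and 64.30 FPKM in DP and at 31.69, 90.42 and 35.40 FPKM in LG. DP replicate 1 and LG replicate 2 stood above the other libraries of their stages. After scaling, JUN lay between 72.9 and 126.5 in LL, between 42.6 and 95.4 in DP and between 26.5 and 73.3 in LG, and LG replicate 2 (73.3) exceeded LL replicate 3 (72.9), so the groups overlapped narrowly. LG against LL gave a log2 fold change of -1.39 ± 0.44 (SE, adjusted p = 0.0236). It lost its call without LL replicate 1 (-1.23), LL replicate 2 (-1.33), LG replicate 1 (-1.15) or LG replicate 3 (-1.16). The call was also lost with quantile normalization (-1.02, adjusted p = 0.117). On values as deposited the log2 fold change was -0.23 (adjusted p = 0.637, range over the alternatives 0.00475 to 0.637). DP against LL (-0.81, 95% confidence interval -1.78 to 0.17) and LG against DP (-0.58, -1.56 to 0.39) did not pass; without DP replicate 1, DP against LL passed at -1.18, and as deposited it was 0.59.

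JUNB, an AP-1 subunit that can restrain JUN, was lower in LG than in DP. JUNB (chromosome 7, 98107928 to 98109770, minus strand) was deposited at 11.43, 5.44 and 9.07 FPKM in LL, at 50.88, 26.14 and 83.77 FPKM in DP and at 7.86, 19.38 and 10.11 FPKM in LG. All 3 DP libraries exceeded all 3 LG libraries, also after scaling, where DP held 18.1 to 58.2 and LG 6.56 to 15.7. LG against DP gave a log2 fold change of -1.71 ± 0.45 (adjusted p = 0.0157). It lost its call without LG replicate 1 (-1.49) or LG replicate 3 (-1.59). DP against LL was 1.08 ± 0.45 with an adjusted p of 0.0647 and overlapping groups, since LL replicate 1 (23.0 scaled FPKM) lay above DP replicate 2 (18.1 scaled FPKM); it passed without LL replicate 1 (1.36) or DP replicate 2 (1.49). LG against LL was -0.64 (-1.65 to 0.37).

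FOS, the AP-1 subunit with the fastest known response, showed the widest spread of the 10 genes and no difference between stages that passed. FOS (chromosome 10, 16631964 to 16635429, minus strand) was deposited at 6.91, 5.03 and 13.58 FPKM in LL, at 40.71, 8.69 and 130.88 FPKM in DP and at 12.53, 18.11 and 4.80 FPKM in LG. The DP libraries differed 15.1-fold between replicate 2 and replicate 3, so that the DP group held both the second lowest and the highest scaled value of all 9 libraries. The log2 fold change of DP against LL was 0.78 ± 0.81 (adjusted p = 0.427), with an interval from -1.04 to 2.60. It was -0.13 without DP replicate 3 and passed without DP replicate 2, at 1.73. LG against DP was -1.47 (-3.29 to 0.34) and passed only without DP replicate 2, at -2.42. LG against LL was -0.69 (-2.51 to 1.13), and 0.37 on values as deposited.

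FOSB, a close relative of FOS, was almost silent except in 1 library. FOSB (chromosome 18, 54127703 to 54134640, plus strand) was deposited at 0.07, 0.04 and 0.20 FPKM in LL, at 0.31, 0.17 and 7.72 FPKM in DP and at 0.55, 0.57 and 0.13 FPKM in LG. DP replicate 3 was the only library above 1 FPKM, and its scaled value was 45.5 times that of DP replicate 2. The log2 fold changes were 0.80 (-0.44 to 2.03) for DP against LL, 0.18 (-1.06 to 1.41) for LG against LL and -0.62 (-1.86 to 0.61) for LG against DP, and none passed. Without DP replicate 3, DP against LL was -0.020 and LG against DP was 0.20. At such low levels the added 1 FPKM makes these fold changes smaller than ratios of the values, and with 0.1 FPKM added they were 1.45, 0.60 and -0.84, none of which passed.

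EGR1, a zinc finger factor that MAP kinase signalling induces through ELK1, was higher in LG than in LL. EGR1 (chromosome 7, 60658577 to 60662413, minus strand) was listed at 0 in LL replicate 1 and deposited at 0.32 and 0.59 FPKM in LL replicates 2 and 3, at 7.38, 1.06 and 8.04 FPKM in DP and at 3.01, 13.75 and 2.13 FPKM in LG. Every LG library lay above every LL library, before and after scaling, while DP replicate 2 fell below LL replicate 3 after scaling. LG against LL gave a log2 fold change of 1.72 ± 0.63 (adjusted p = 0.0437). The call was lost without any 1 of LL replicates 1 to 3 (1.45, 1.78 and 1.94) or LG replicates 1 or 2 (1.95 and 1.05), with adjusted p-values from 0.0218 to 0.147 over the 9 libraries left out in turn. It was also lost with quantile normalization (1.54, adjusted p = 0.0871). DP against LL was 1.47 ± 0.63 (adjusted p = 0.0689), passed without DP replicate 2 (2.08) and, with the same log2 fold change, without LG replicate 2. LG against DP was 0.25 (-1.15 to 1.65). Since LL lay at 0 to 0.59 FPKM, the added 1 FPKM made these fold changes small, and with 0.1 FPKM added they were 3.15 for LG against LL and 2.78, now called, for DP against LL.

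ATF3, a stress-induced factor of the ATF and CREB family that also pairs with JUN proteins, fell from LL to both other stages. ATF3 (chromosome 16, 69577756 to 69590608, minus strand) was deposited at 8.31, 10.71 and 6.20 FPKM in LL, at 4.70, 3.57 and 9.37 FPKM in DP and at 3.32, 6.30 and 2.83 FPKM in LG. As deposited, the groups overlapped through DP replicate 3 and LG replicate 2. After scaling they did not, and ATF3 lay between 10.2 and 19.4 in LL, between 2.48 and 6.51 in DP and between 2.15 and 5.11 in LG. The rank within a library does not use the scaling factors but, like them, sets ATF3 against the other genes. It gave the same order, since ATF3 lay between percentiles 75.5 and 86.2 of the genes tested in LL, against 30.2 to 62.7 in DP and 31.3 to 54.3 in LG. The log2 fold change was -1.75 ± 0.34 for DP against LL (adjusted p = 0.00224) and -1.93 ± 0.34 for LG against LL (adjusted p = 0.00157), and both calls were kept with any 1 of the 9 libraries left out. On values as deposited they were -0.51 (adjusted p = 0.164, range over the alternatives 6.76e-04 to 0.164) and -0.90 (adjusted p = 0.0292, range 5.99e-04 to 0.0292), where the median of all genes tested was 1.09 and 0.93, so relative to that median ATF3 was lower by -1.60 and -1.83. LG against DP was -0.18 (-0.96 to 0.59).

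MYC, which encodes a growth-promoting transcription factor, was higher in DP and LG than in LL and was the steadiest of the 8 genes. MYC (chromosome 14, 69337450 to 69342784, plus strand) was deposited at 2.40, 1.85 and 3.44 FPKM in LL, at 10.14, 12.10 and 13.95 FPKM in DP and at 10.22, 12.51 and 14.95 FPKM in LG. All 6 DP and LG libraries lay above all 3 LL libraries, also after scaling (where MYC lay between 3.34 and 5.68 in LL, between 6.64 and 9.69 in DP and between 8.53 and 11.4 in LG). The log2 fold change was 0.73 ± 0.19 in DP (adjusted p = 0.00995) and 0.99 ± 0.19 in LG (adjusted p = 0.00248), both against LL. Both had an adjusted p under the threshold and a fold change under it, so neither was called, and LG against LL passed the fold threshold without LL replicate 1 (1.02), LL replicate 3 (1.12) or LG replicate 1 (1.09) and with a pseudocount of 0.1 (1.12). LG against DP was 0.26 (-0.17 to 0.69). Among 7 genes of dividing cells, 5 rose in LG against LL (MCM2, CCNB1 and CDK1 by 1.58, 2.48 and 2.57 on the log2 scale), beside 10.7% of all genes. None of the 7 was called in DP against LL, beside 22.6% of all genes. The summed scaled FPKM of the 7 genes was between 10.8 and 12.5 in LL, between 12.1 and 14.0 in DP and between 29.3 and 53.8 in LG. Their part in the MYC values was not tested.

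DUSP1, the phosphatase that inactivates MAP kinases, was deposited at 32.11, 58.67 and 58.25 FPKM in LL, at 45.15, 59.32 and 115.25 FPKM in DP and at 28.15, 84.37 and 67.30 FPKM in LG. DUSP1 (chromosome 20, 4601973 to 4605128, minus strand) thus varied most within DP and LG, with DP replicate 3 and LG replicate 2 the highest of their stages, and all groups overlapped. The log2 fold change was -0.90 ± 0.44 for DP against LL (adjusted p = 0.102) and -0.98 ± 0.44 for LG against LL (adjusted p = 0.0873), with values of 0.49 and 0.18 as deposited. Without DP replicate 3 the first passed at -1.29, and without LG replicate 2 the second passed at -1.30. LG against DP was -0.08 (-1.05 to 0.90).

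For IER2, the deposited values were between 3.95 and 7.30 FPKM in LL, between 12.39 and 20.99 FPKM in DP and between 12.61 and 18.83 FPKM in LG. IER3 lay between 9.78 and 10.20 FPKM in LL, between 27.80 and 37.44 in DP, and between 18.00 and 26.39 in LG. After scaling, the groups of both genes overlapped in every comparison and no log2 fold change exceeded 0.28 in size, whereas as deposited LL lay below the other stages. These values rest on LOC108636403 and FLOT1 as described above.

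By count, 1 of the 10 genes was called in DP against LL (ATF3, lower), where 22.6% of all genes tested were called, 8.79% lower and 13.8% higher. In LG against LL, 3 of 10 were called (EGR1 higher, ATF3 and JUN lower), where 17.3% of all genes were called, 10.7% higher and 6.61% lower. In LG against DP, 1 of 10 was called (JUNB, lower), where 13.3% of all genes were called, 6.88% lower and 6.37% higher. The groups did not overlap for 2 of the 10 genes in DP against LL, for 3 in LG against LL and for 1 in LG against DP, whereas this held for 65.9%, 61.1% and 47.9% of all genes. The median log2 fold change over the 10 genes was 0.50, -0.31 and -0.22 in the same order, beside 0.0041, 0.019 and 0.0083 over all genes. Over the 8 genes that were not linked it was larger in size, at 0.75, -0.66 and -0.38. The first 2 comparisons share the LL libraries.

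**Figure D3:**
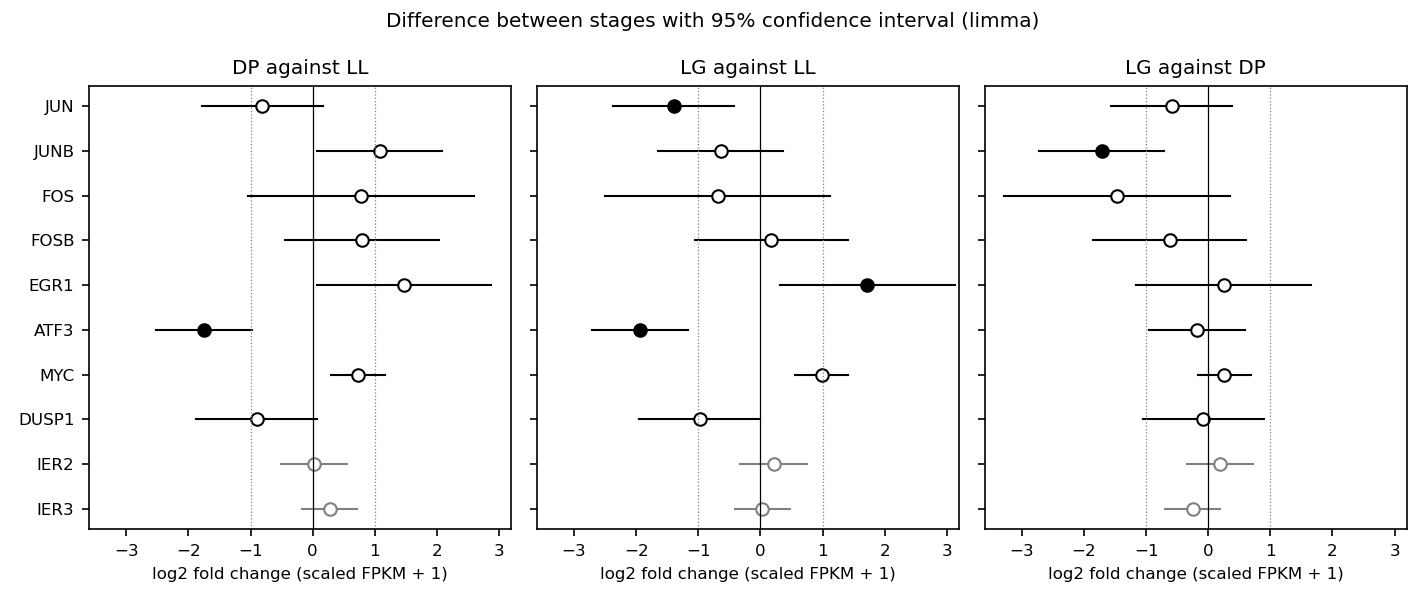
Log2 fold changes on log2(scaled FPKM + 1) with 95% confidence intervals from limma for each gene (rows) in the 3 comparisons (panels); filled points were called, grey points are the linked genes, and dotted lines mark a change of 1. ATF3 lies at -1.75 and -1.93 against LL, EGR1 at 1.72 and JUN at -1.39 in LG against LL, and JUNB at -1.71 in LG against DP.

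The spread between goats of one stage was wide for these genes. The residual SD of log2(scaled FPKM + 1) around the stage means was 1.24 for FOS, 0.96 for EGR1, 0.84 for FOSB, 0.67 for JUNB, 0.65 for DUSP1, 0.65 for JUN, 0.51 for ATF3 and 0.26 for MYC, beside a median of 0.20 over all genes tested. FOS stood at percentile 99.7 of the genes tested, EGR1 at 99.1, FOSB at 98.5 and MYC at 67.4. All but MYC, 7 of 8 genes, lay above the 90th percentile of 0.43. The share of the variance that lay between stages was 26.0% for FOS, 20.1% for FOSB, 48.5% for EGR1 and 41.4% for DUSP1. It was 81.3% for ATF3 and 80.0% for MYC, beside a median of 77.4% over all genes. These shares were not corrected for the small number of libraries, so spread between goats alone also gives a share. The low shares of FOS and FOSB are therefore not read as an effect of stage. The median SD over the 8 genes was 0.43 in LL, 0.77 in DP and 0.69 in LG, beside 0.15, 0.18 and 0.18 over all genes. FOSB and EGR1 lay below 1 FPKM in LL, where the added 1 FPKM narrows the SD on this scale. As a percentage of the mean deposited FPKM, the SD of FOSB was 82.3% in LL and 158.0% in DP. For EGR1 it was 97.4% in LL and 70.1% in DP. The median residual SD of the 8 genes was 0.66, and 0.67, 0.68 and 0.69 without scaling, with quantile normalization and with a pseudocount of 0.1.

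**Figure D4:**
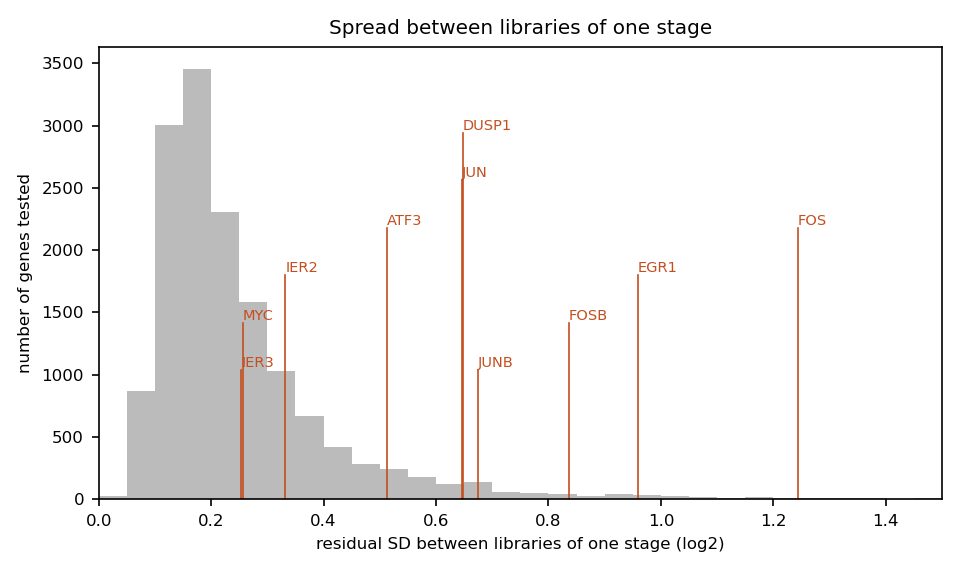
Histogram of the residual SD between libraries of one stage (log2 scale, horizontal axis) over the genes tested (number of genes, vertical axis), with a vertical line at each immediate early gene; line heights only separate the labels, and 13 genes lie beyond the right edge. FOS at 1.24, EGR1 at 0.96 and FOSB at 0.84 lie far in the right tail, while MYC at 0.26 lies near the bulk of genes.

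The wide spread followed particular libraries. DP replicate 3 was the highest of the DP libraries for 7 of 8 genes, all but JUN, and DP replicate 2 was the lowest for 6 of 8, all but MYC and DUSP1. LG replicate 2 was the highest of the LG libraries for 7 of 8 genes, all but MYC, though for FOSB both it and LG replicate 1 rounded to 0.46 scaled FPKM. For comparison, 38.7% of all genes tested were highest in DP replicate 3 and 30.9% in LG replicate 2 within their stages. No LL library stood apart in this way, since LL replicates 1, 2 and 3 were the highest for 2, 2 and 4 of the 8 genes. The mean deviation of the 8 genes from their stage mean was 0.79 in DP replicate 3, -0.72 in DP replicate 2 and 0.63 in LG replicate 2, and between -0.36 and 0.086 in the 6 other libraries.

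**Figure D5:**
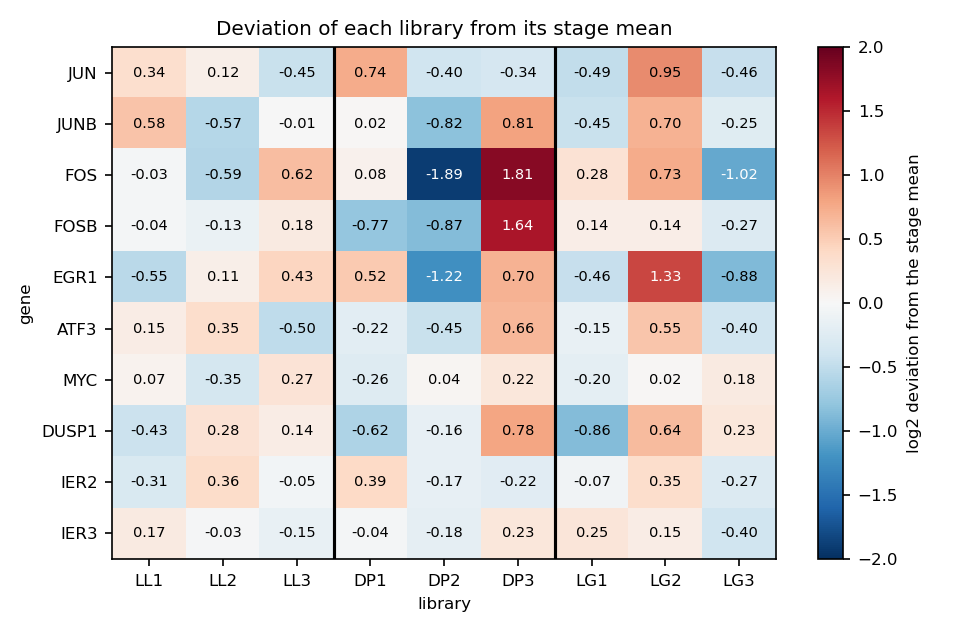
Deviation of each library (columns) from the mean of its stage on log2(scaled FPKM + 1) for each gene (rows), with the value in each cell; red is above and blue below the stage mean. The DP3 column is above the mean for 8 genes including FOS (1.81), the DP2 column is at -1.89 for FOS, and the LG2 column is above the mean for every gene.

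Markers of other cell types and stress genes were read in the same libraries. Summed scaled FPKM of 7 fibroblast markers (COL1A1, COL1A2, COL3A1, PDGFRA, PDGFRB, DCN and LUM) was 2415 in DP replicate 3, against 517.5 and 922.9 in DP replicates 1 and 2. It was 962.0 in LG replicate 2, against 527.5 and 667.5 in LG replicates 1 and 3. The DP and LG libraries highest in immediate early genes were thus also highest in this sum. Of the other DP and LG libraries, those with the lower mean deviation had the higher sum. DP replicate 2, with a mean deviation of the 8 genes of -0.72, exceeded DP replicate 1 (-0.063) in this sum. LG replicate 3 (-0.36) likewise exceeded LG replicate 1 (-0.27). In LL, replicate 3 was highest in the mean deviation (0.086) and in the sum (331.5, against 218.4 and 231.1 in LL replicates 1 and 2). LL replicate 2 (-0.097) exceeded LL replicate 1 (0.011) in the sum. Of 7 endothelial markers, the sum was 218.6 in DP replicate 3, against 142.3 and 155.0, and 97.7 in LG replicate 2, against 69.5 and 96.2. Leukocyte markers, of which 12 were in the table, were lowest in DP replicate 3 (94.8, against 158.6 and 126.5 in DP replicates 1 and 2) but highest in LG replicate 2 (48.8, against 43.2 and 35.4 in LG replicates 1 and 3). The 5 secretory genes were also highest in LG replicate 2 (8893, against 6644 and 7295) and lowest in DP replicate 3 (92.2, against 96.0 and 99.8), and 5 adipocyte markers summed to 22.8 in DP replicate 1 and 3.56 and 3.77 in DP replicates 2 and 3. The sum of 8 heat shock genes was 445.8 in DP replicate 3, against 403.6 and 407.9, and it was 907.5 in LG replicate 3, against 415.0 in LG replicate 2. Sums of 5 luminal markers were 242.8, 478.1 and 308.1 in DP replicates 1 to 3, and 329.7, 324.0 and 392.9 in LG replicates 1 to 3. Those of 6 myoepithelial markers were 135.9, 453.3 and 347.5 in DP, and 225.0, 269.8 and 303.6 in LG. Both sums were highest in DP replicate 2 and in LG replicate 3. The part of these cell types and of tissue handling in the immediate early gene values was not tested.

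Between stages these lists also moved. Of 10 leukocyte markers tested, 6 rose in DP against LL (CD3D, CD8A and PTPRC by 1.75, 1.64 and 1.58 on the log2 scale), 2 rose and 2 fell in LG against LL, and 5 fell in LG against DP. Fibroblast markers rose for 6 of 7 in DP against LL (COL1A1 by 2.37) and for 2 in LG against LL, and fell for 3 in LG against DP (PDGFRA at -2.41). All 5 secretory markers, 2 of them with linked values, fell in DP against LL and rose in LG against DP, and 4 fell in LG against LL. None of 7 endothelial markers was called against LL and 2 fell in LG against DP, none of 5 luminal markers was called, and of 6 myoepithelial markers 1 rose in DP against LL (TP63, 1.47), 2 in LG against LL (OXTR, 2.11) and 1 in LG against DP. Of 3 adipocyte markers tested, LIPE fell in DP (-1.49) and LG (-1.14) against LL, and ADIPOQ and CIDEC were not called. Heat shock genes rose for 1 of 8 in DP against LL (HSPA6, 1.31) and for 2 in LG against LL (HSPH1, 1.26, and HSPA6, 1.10). The immediate early values of the stages stand beside these shifts, and their part in the differences was not tested.

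Other immediate early genes, a list of 33 of which 29 were tested, were read in the same libraries. All 29 had a residual SD above the median of all genes and 14 of 29 lay above the 90th percentile, with a median of 0.42. DP replicate 3 was the highest DP library for 24 of 29 and LG replicate 2 the highest LG library for 20 of 29. The lowest DP library was replicate 2 for 13 of 29 and replicate 1 for 14 of 29, so DP replicate 2 did not stand apart as it did for the 8 genes. In DP against LL, 5 rose and 3 fell, the median over the list was 0.32 (log2), and the 3 largest were IER5L (2.04), SOCS3 (1.65), a brake on cytokine signalling, and BHLHE40 (1.46), a transcriptional repressor of the clock. In LG against LL, 2 rose and 9 fell, with a median of -0.41, led by NFKBIA (-1.91), the inhibitor of NF-kappaB, CTGF (1.83), a target of YAP signalling, and KLF6 (-1.76). In LG against DP, 1 rose and 11 fell, with a median of -0.74, led by SOCS3 (-2.79), BHLHE40 (-2.23) and KLF4 (-2.04). For these 3 comparisons in turn, 13.8%, 10.7% and 6.37% of all genes tested were called higher, and 8.79%, 6.61% and 6.88% lower. SOCS3 was deposited at 1.62, 2.76 and 2.89 FPKM in LL, at 19.02, 13.79 and 45.05 FPKM in DP and at 1.17, 2.72 and 1.58 FPKM in LG, so the DP libraries stood above all others.

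Of 20 kinases and transcription factors that act upstream of the immediate early genes, 1 was called between DP and LL (22.6% of all genes), 1 between LG and LL (17.3%) and 2 between LG and DP (13.3%). ELK1, a MAP kinase target at serum response elements, was the only one called against LL (1.01 in DP and 1.10 in LG). It was deposited at only 0.06, 0.14 and 0.05 FPKM in LL. In LG against DP ELK3, a related repressor, was at -1.32. Their median residual SD was 0.16, below that of all genes. Of 13 other bZIP genes, whose proteins can pair with AP-1 or ATF3, 2 rose and 3 fell in DP against LL, among them ATF4 (-1.84), which induces ATF3 in the integrated stress response, and ATF7 (1.44). In LG against LL 1 rose (ATF7, 1.49) and 2 fell, ATF4 (-1.87) and its target DDIT3 (-1.72), and in LG against DP BATF3 was at -1.35. ATF4 was deposited at 65.65, 74.30 and 80.26 FPKM in LL, at 52.74, 46.83 and 62.38 FPKM in DP and at 28.46, 50.10 and 60.86 FPKM in LG, with all LL libraries above all others, as ATF3 was after scaling.

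Among 9 other MAP kinase phosphatases, 3 fell in DP against LL (DUSP4, at -2.48, and DUSP6 and DUSP16, each -1.0) and 3 fell in LG against LL (DUSP6, -1.77, DUSP10, -1.30, and DUSP16, -1.05). In LG against DP, DUSP4 rose by 2.23 and DUSP2 was at -1.11. DUSP4 was deposited at 18.31, 10.09 and 19.85 FPKM in LL, at 5.61, 5.35 and 7.79 FPKM in DP and at 21.31, 27.48 and 42.52 FPKM in LG, with no overlap of DP and the other stages. Of 11 genes of the wider MYC network, 2 fell in DP against LL (MYCL, -1.65, and MLX, -1.0, whose value was linked to a neighbour). In LG against LL 1 rose (MXD4, 1.01) and 1 fell (MYCL, -2.35), and none was called in LG against DP. MYCL, the relative of MYC, thus went in the opposite direction to MYC against LL. Beside the counts of both lists, 22.6%, 17.3% and 13.3% of all genes were called in DP against LL, LG against LL and LG against DP.

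The genes whose within-stage deviations were most like the mean deviation of the 10 genes, IER2 and IER3 included, over the 9 libraries were CHI3L1 (r = 0.963), C1R (0.961), MYBPH (0.961), LOC102188569 (0.960), FBXL14 (0.959), CXCL14 (0.954), NAT6 (0.943) and HYAL3 (0.943), out of 7836 genes compared. CHI3L1 with MYBPH, C1R with LOC102188569, and NAT6 with HYAL3 had linked values, so these 8 genes hold 5 separate measurements. The 9 points share their libraries and scaling, and 5 of the 8 genes were the same without scaling, 6 with quantile normalization and all 8 when IER2 and IER3 were left out of the mean, an alternative added after seeing the data.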

How the data were processed

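Mammary gland RNA of 9 goats was sequenced, 3 per stage, and stages and replicate numbers were taken from the labels. The submitters' notes name FastQC, Trimmomatic, HISAT2, SAMtools and HTSeq, and the methods describe HISAT2 alignment and StringTie quantification. The table deposited by the authors holds 9 columns of values taken as FPKM per gene; its unit, its genome build and the step from transcripts to genes are not given in the sources used here. FPKM as deposited carry no read counts, so depth is unknown here and no counting error was computed. Coordinates are those of the table, and 23465 gene identifiers matched the RefSeq table of ARS1.2 with the same start and end.

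FPKM were divided by median-ratio factors from 15905 genes, 1 was added, log2 was taken, and 14701 genes were fitted over all 9 libraries with limma 3.58.1 (mean-variance trend) in R 4.3.3. All adjusted p-values are from limma, two-sided, with Benjamini-Hochberg adjustment over all genes tested. With 3 libraries a stage, an exact permutation test cannot go below 0.1. The p-values, SEs and intervals rest on the spread between single goats, which limma draws toward that of all genes tested. For genes of wide spread, such as FOS and EGR1, SEs and intervals are therefore narrower than the spread of the gene alone would give. Spread, likeness and sums of markers were computed in Python 3.11.15. Genes were called linked where their 9 values were a straight line of those of a same-strand gene up to 8 genes away, with or without the per-library amount seen for IER2, to within 1% of their range.

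The 10 genes and the lists were chosen with earlier results of these data known. All 10 are named whatever their result, with at most 3 called genes per list and comparison, every gene of a list with 3 or fewer measured, and the 8 genes most like the group. List counts include a few genes that are not reported here. The alternatives were other scaling, pseudocounts, filters, variance priors and fits, a replicate block, leaving out each library and, added after seeing the data, leaving out linked genes.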

Additional observations from a re-analysis of the deposited data

How the results depend on the processing

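Of 507 fold changes of the 10 genes under alternatives, 443 kept direction and call, 25 gained a call, 18 lost one and 21 changed sign. Other filters, fitting 2 stages, the replicate block and the variance prior left each fold change as it was, so direction could not change. The same holds where the library left out belonged to neither stage compared. In these cases only the adjusted p-value could move a call. Scaling mattered most: without it the median of all genes moved to 1.09, 0.93 and -0.18 (DP against LL, LG against LL, LG against DP), 8348 and 7043 genes were called against LL in DP and LG (7979 higher and 369 lower, and 6698 higher and 345 lower, against 2029 and 1292, and 1572 and 972, with scaling; 715 and 1577 against 937 and 1011 in LG against DP), 6 of the 10 genes were called in DP against LL, 5 of the 8 most like genes were kept, and signs changed for JUN (0.59) and DUSP1 (0.49) in DP against LL, FOS (0.37), JUNB (0.44) and DUSP1 (0.18) in LG against LL and IER2 in LG against DP (-0.027). Quantile normalization called 2 of the 10 genes in DP against LL and 1 in LG against LL, a pseudocount of 0.1 called 2 in DP against LL and 3912 genes in LG against LL, and fitting only the 2 stages called 2 in DP against LL. Without a filter on low values the EGR1 call in LG against LL was lost (adjusted p = 0.0815, range over the alternatives 0.0103 to 0.147).

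With each library left out in turn, 1 to 4 of the 10 genes were called in DP against LL, 1 to 3 in LG against LL and 0 to 2 in LG against DP. In DP against LL the fold changes ranged from -0.13 to 1.73 for FOS, -0.020 to 1.23 for FOSB and -0.18 to 0.20 for IER2, and in LG against LL from -0.097 to 0.23 for IER3. In LG against DP they ranged from -0.42 to 0.69 for EGR1, -1.06 to 0.20 for FOSB, -0.46 to 0.15 for ATF3 and -0.40 to 0.35 for DUSP1. Same-numbered libraries of the stages deviated together with correlations of -0.11 to 0.20, so the numbers were not taken as pairs. A fit with the replicate block called 3340, 2564 and 1986 genes, beside 3321, 2544 and 1948 without it, and of the calls of the 10 genes lost EGR1 in LG against LL (adjusted p = 0.0643). Leaving out linked genes gave 3066, 2364 and 1755 calls and the same counts for the 10 genes. Depth is unknown, so low values such as those of FOSB and EGR1 carry no error of their own beyond the spread of 3 goats.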
